A study of Arabidopsis thaliana with 12 samples.

Results

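The genes described here are a tandem cluster on Arabidopsis chromosome 4 that holds AZI1 (AZELAIC ACID INDUCED 1, AT4G12470), EARLI1 (EARLY ARABIDOPSIS ALUMINUM INDUCED 1, AT4G12480), AZI3 (AT4G12490), AT4G12500, AT4G12510, AT4G12520, AT4G12530, AT4G12545 and AIR1 (AT4G12550), together with DIR1 (AT5G48485) on chromosome 5. The 10 loci were listed by identifier, and 8 of them have a row among the 23387 genes of the deposited table. AIR1 and DIR1 were not analysed here. The list was selected on measured values, the low TPM of AZI1 in h3.3kd and the high TPM of EARLI1 in h2a.z, each against Col, so the values of the 8 genes in those 2 comparisons are given as a description, with no test. RNA-seq was done on whole 7-day-old Arabidopsis thaliana seedlings of 4 genotypes, with 3 libraries each: the wild type Col, an H3.3 knockdown named h3.3kd (h3.3kd-1 in the genotype label), an H2A.Z mutant named h2a.z, and a line that combines them, h3.3kd;h2a.z. All seedlings were raised in short days at 21 °C and were then kept at 27 °C for 12 h, so every library comes from warmed plants. The sources used here do not give the alleles or the knockdown construct. The study's title concerns the exchange of H2A.Z and H3.3 in growth at warm temperature.

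AZI1, EARLI1 and their neighbours encode small secreted or membrane-associated proteins with an 8-cysteine motif, the fold of plant lipid transfer proteins and seed albumins. AZI1 and EARLI1 also carry a proline-rich stretch, and AZI1 is needed for azelaic acid, a mobile lipid-derived signal, to prime systemic acquired resistance, the whole-plant immunity that follows a local infection. EARLI1 was first described as induced by aluminium and also responds to cold. DIR1 is a lipid transfer protein that acts in the same long-distance signalling, and AIR1 was named for its induction by auxin in root cultures. H2A.Z and H3.3 are histone variants that replace the standard H2A and H3 in nucleosomes, and H2A.Z is abundant over genes that respond to the environment.

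In RefSeq's annotation of build TAIR10.1 the 9 cluster genes lie within 38.72 kb, from 7401087 to 7439805 on chromosome 4. The first 7 are on the minus strand, and AT4G12545 and AIR1 are on the plus strand. Each gene is annotated as 1 exon. AZI1 spans 7401087 to 7401951 with a coding length of 486 bases, and EARLI1 spans 7406065 to 7406994 with 507. The coding sequences of AZI1 and EARLI1 are 84.1% identical, and those of AZI3 and AT4G12500 are 90.3% identical. AT4G12510 and AT4G12520 are 99.5% identical over their coding sequences, and 51.78% of the 50-base windows of AT4G12510 occur in another of the listed genes. No 50-base window of AZI1 or EARLI1 occurs in any of the others. The division of reads between AT4G12510 and AT4G12520 is therefore uncertain, since the sources used here do not state the counting rule. Smaller shares of the windows of AT4G12545 (11.95%), AZI3 (6.78%) and AT4G12500 (5.45%) also occur in another listed gene. AT4G12545 and AIR1, which has no row in the deposited table, are 93.2% identical over their coding sequences. Some reads of these genes may therefore be shared as well. EARLI1, AZI3 and AT4G12545 each overlap an annotated gene on the opposite strand, and no source used here says whether the counting used strand, so reads of the overlapping partners cannot be told apart.

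The 250 bases before the annotated start are printed for 5 of the genes that passed the filter on low values, 3 with every h2a.z library above every Col library and 2 with every h2a.z library below. Sequences are from RefSeq, build TAIR10.1, written 5′ to 3′ on the gene's own strand, with capitals marking TTGAC, the core of the W box, on either strand. The windows are chr4:7401952-7402201 (AZI1), chr4:7406995-7407244 (EARLI1), chr4:7417874-7418123 (AT4G12510) and chr4:7421829-7422078 (AT4G12520), on the minus strand, and chr4:7433949-7434198 (AT4G12545), on the plus strand.
AZI1: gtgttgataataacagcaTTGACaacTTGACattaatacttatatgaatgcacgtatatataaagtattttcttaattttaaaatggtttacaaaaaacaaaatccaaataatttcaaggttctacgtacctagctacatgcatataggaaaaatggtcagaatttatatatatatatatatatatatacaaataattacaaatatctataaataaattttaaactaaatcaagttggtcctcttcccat
EARLI1: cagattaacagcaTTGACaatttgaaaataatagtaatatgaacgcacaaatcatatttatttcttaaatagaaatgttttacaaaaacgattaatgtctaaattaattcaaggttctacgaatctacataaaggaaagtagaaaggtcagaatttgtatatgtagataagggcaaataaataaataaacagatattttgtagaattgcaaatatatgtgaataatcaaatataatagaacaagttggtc
AT4G12545: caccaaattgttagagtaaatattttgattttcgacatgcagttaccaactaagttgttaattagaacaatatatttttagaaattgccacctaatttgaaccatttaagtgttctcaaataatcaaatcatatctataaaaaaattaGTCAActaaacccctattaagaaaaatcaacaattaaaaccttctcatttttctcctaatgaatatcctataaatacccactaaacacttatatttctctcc
AT4G12510: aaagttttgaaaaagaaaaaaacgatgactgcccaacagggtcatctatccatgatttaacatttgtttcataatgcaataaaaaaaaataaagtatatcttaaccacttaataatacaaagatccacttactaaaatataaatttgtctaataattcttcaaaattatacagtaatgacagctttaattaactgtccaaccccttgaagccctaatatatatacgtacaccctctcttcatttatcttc
AT4G12520: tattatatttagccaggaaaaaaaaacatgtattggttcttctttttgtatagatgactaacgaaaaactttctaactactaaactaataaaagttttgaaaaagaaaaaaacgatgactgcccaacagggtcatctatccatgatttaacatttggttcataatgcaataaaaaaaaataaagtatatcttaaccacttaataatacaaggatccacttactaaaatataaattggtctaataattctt

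TTGAC was found in each of the first 3 windows, with 2 copies before AZI1, and in neither of the last 2; across the genome 44.9% of 27443 such windows hold it. None of the 5 windows held TGACG (the core bound by TGA factors, which can overlap TTGAC by 4 letters, 18.6% of all windows), CACGTG (G box, 6.49%), GCCGCC (GCC box, 1.87%) or TGTCTC (auxin response element, 10.9%). The AZI1 and EARLI1 windows are 63.2% identical when aligned end to end. Those of AT4G12510 and AT4G12520 share an identical run of 66 bases, so their 2 results are not separate. The windows were grouped by the comparison that chose the list, and nothing is read from the division. A match is a stretch of letters, not a binding site.

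Values are TPM, the usual length-scaled unit, in which each library sums to 1000000, and fold changes are on the log2(TPM + 1) scale, which understates changes of low genes. The targeted genes followed the labels: the H3.3 genes HTR4, HTR5 and HTR8 reached at most 96.5 TPM in any h3.3kd or h3.3kd;h2a.z library, against at least 200.4 TPM in Col. The H2A.Z genes HTA8, HTA9 and HTA11 had log2 changes of -2.93 to -3.94 in h2a.z against Col, and HTA9 was higher in h3.3kd;h2a.z than in h2a.z (1.41, adjusted p = 0.00031), so the combined line did not have the same HTA9 level as h2a.z. Smaller falls were also called in HTR5 (-0.65, adjusted p = 0.014) and HTR8 (-0.49, 0.045) in h2a.z against Col. HTA8 was called lower in h3.3kd against Col (-0.70, adjusted p = 0.04). These calls were lost in 2, 14 and 17 of 22 alternatives. Steps between low TPM values put the depth at 14.2 to 17.1 M reads per library. The library h3.3kd 2 stood apart: 1032 of 3523 single-exon genes were at 0 in it, against 377 to 702 in the others, and 78 held 1 to 5 reads, against 286 to 416. Values of 0 in that library are listed as deposited, and the h3.3kd values of the genes described below are also given without it where they are above the floor. RNA came from whole seedlings, in which fewer cells of a type and less RNA per cell cannot be told apart. The labels do not say whether replicates came from separate cultures, so p-values measure only the spread between these samples.

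AZI1 was present in Col, nearly absent in h3.3kd, high in h2a.z and on both sides of the Col range in the combined line. It stood at 5.36, 14.7 and 12.5 TPM in Col, and at 0.590, 0 and 0.124 TPM in h3.3kd. In h2a.z it stood at 127, 142 and 178 TPM, and in h3.3kd;h2a.z at 3.24, 5.29 and 31.9 TPM. All h3.3kd libraries lay below and all h2a.z libraries above every Col library, while the combined libraries lay below or above the Col range. In estimated reads, the h3.3kd libraries held 5, 0 and 1, the Col libraries 43 to 103 and the h2a.z libraries 960 to 1486. The log2 difference from Col was -3.19 ± 0.56 (SE) in h3.3kd and 3.75 ± 0.56 in h2a.z. Without h3.3kd 2 the former was -3.05, and with a pseudocount of 0.1 in place of 1 it was -5.34.

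EARLI1 was low in Col and was the highest of the cluster in h2a.z. Its level was 0.696, 1.33 and 0.924 TPM in Col, and 0.329, 0 and 1.85 TPM in h3.3kd. The h2a.z libraries held 146, 155 and 302 TPM, and the h3.3kd;h2a.z libraries 9.30, 5.69 and 43.0 TPM. Col and h3.3kd overlapped, and every combined library lay above both and below every h2a.z library. The log2 difference from Col was 6.60 ± 0.55 (SE) in h2a.z and -0.33 ± 0.55 in h3.3kd, or -0.014 without h3.3kd 2. AZI1 made up 88.5% to 93.1% of the summed TPM of AZI1 and EARLI1 in Col, but 37.0% to 47.8% in h2a.z and 25.8% to 48.1% in the combined line. In h3.3kd the pair rests on few reads, and the share was 64.2% in library 1 and 6.30% in library 3. These libraries held 5 and 1 estimated reads of AZI1 and 3 and 16 of EARLI1, so nothing is read from the h3.3kd shares.

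AZI3 and AT4G12500 were detected almost only in h2a.z, and passed the filter on low values (1 TPM in at least 3 libraries) through their h2a.z libraries. AZI3 was listed at 0 in all 3 Col libraries, at 0, 0 and 0.684 TPM in h3.3kd, at 17.5, 28.1 and 50.3 TPM in h2a.z and at 0.775, 0 and 4.36 TPM in h3.3kd;h2a.z. Its mean in h2a.z was at least 74.2-fold higher than in Col, taking 3 estimated reads per library as the floor for Col. AT4G12500 was at 0, 0.128 and 0 TPM in Col, at 0 in each h3.3kd library, at 10.1, 9.51 and 14.7 TPM in h2a.z and at 0.252, 0 and 4.65 TPM in h3.3kd;h2a.z. That is 304 estimated reads over the h2a.z libraries against 1 over the Col libraries. The depth-adjusted ratio of 297 rests on that 1 Col read and is a description only. For both genes every h2a.z library lay above every library of the other 3 genotypes.

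AT4G12510 and AT4G12520, the near-identical pair, moved the other way in h2a.z. AT4G12520 stood at 26.7, 27.3 and 38.7 TPM in Col, 6.75, 8.07 and 14.3 TPM in h3.3kd, 14.3, 12.0 and 6.95 TPM in h2a.z and 3.19, 2.06 and 5.39 TPM in h3.3kd;h2a.z. AT4G12510 stood at 9.10, 15.3 and 21.7 TPM in Col, 3.04, 6.22 and 8.54 TPM in h3.3kd, 7.53, 5.28 and 0.642 TPM in h2a.z and 1.66, 2.24 and 2.49 TPM in h3.3kd;h2a.z. Each gene was lower in both single lines than in any Col library. The log2 difference from Col was -1.62 ± 0.32 (SE) in h3.3kd and -1.43 ± 0.32 in h2a.z for AT4G12520, and -1.25 ± 0.50 and -1.80 ± 0.50 for AT4G12510. Without h3.3kd 2 the h3.3kd values were -1.53 and -1.32, and without h2a.z 3 the h2a.z value of AT4G12510 was -1.08.

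AT4G12545, on the plus strand at the far end, had its highest level in h2a.z. It stood at 2.61, 7.66 and 10.4 TPM in Col, 1.24, 3.15 and 0.977 TPM in h3.3kd, 46.0, 36.3 and 25.4 TPM in h2a.z and 3.14, 4.19 and 3.58 TPM in h3.3kd;h2a.z. Every h2a.z library was above all others, and h3.3kd overlapped Col. The log2 difference from Col was 2.34 ± 0.38 (SE) in h2a.z and -1.43 ± 0.38 in h3.3kd, or -1.75 without h3.3kd 2. AT4G12530 reached at most 1.88 TPM in any library, with 0 to 12 estimated reads, and was not tested.

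**Figure D1:**
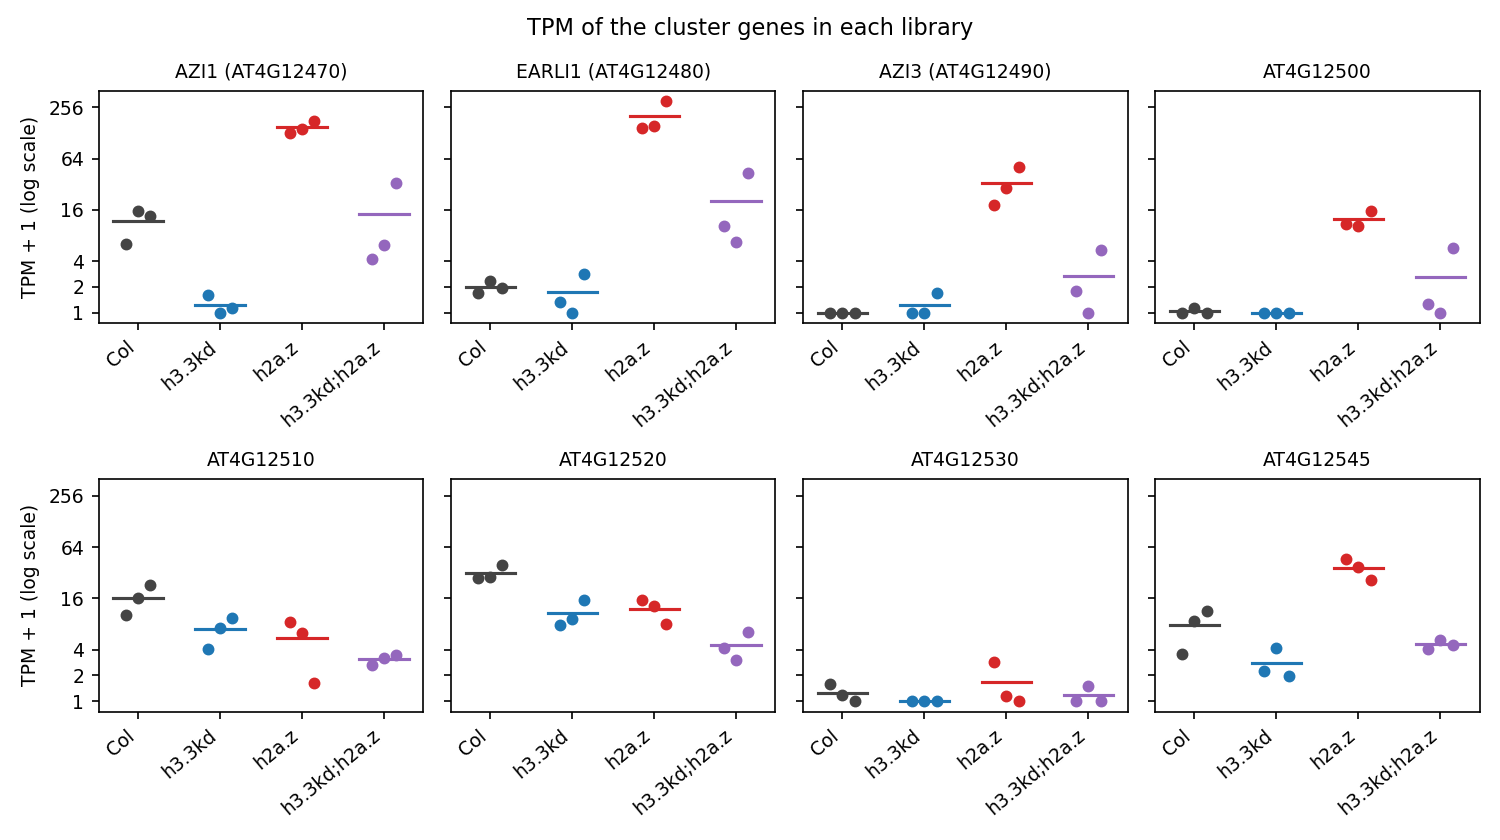
TPM + 1 on a log scale for the 8 cluster genes with values, 1 point per library and a bar at each genotype's mean TPM. AZI1, EARLI1, AZI3, AT4G12500 and AT4G12545 are highest in the 3 h2a.z libraries, AT4G12510 and AT4G12520 are highest in Col, and 1 of the 3 h3.3kd;h2a.z libraries lies above the other 2 for the first 4 genes.

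Counted by libraries, 5 of the 7 tested genes were above Col in every h2a.z library and 2 below it, where 21.9% and 12.5% of the 19937 genes tested were so. In h3.3kd 3 of the 7 lay wholly below Col, where 19.4% of genes did. These comparisons chose the cluster, and nothing is read from their counts. The summed TPM of the 8 genes was 65.3 ± 19.7 (SD, n = 3) in Col, 445 ± 115 in h2a.z and 45.6 ± 43.1 in h3.3kd;h2a.z, and was 11.9, 17.4 and 26.5 in the h3.3kd libraries. The log2 effect of h3.3kd among h2a.z plants minus that among plants with H2A.Z was -3.39 ± 0.78 (SE) for EARLI1, -4.08 ± 0.70 for AZI3 and -2.61 ± 0.66 for AT4G12500, given without a test. In Col AZI3 and AT4G12500 were at or near 0 and EARLI1 was low, so h3.3kd had little room to lower them there. Their negative values therefore largely repeat the difference between the combined line and h2a.z. At a pseudocount of 0.1 the values of AZI3 and AT4G12500 were -6.31 and -3.96. For AZI1 that difference was -0.77 ± 0.79, and its sign depended on the pseudocount (1.19 at 0.1); without h3.3kd;h2a.z 3 it was -1.66. It was -1.53 ± 0.54 for AT4G12545, 0.73 ± 0.71 for AT4G12510 and 0.19 ± 0.45 for AT4G12520. With 1 library left out the value of AT4G12510 ran from 0.016 to 1.20, and that of AT4G12520 turned sign, to -0.089 without h3.3kd;h2a.z 3.

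**Figure D2:**
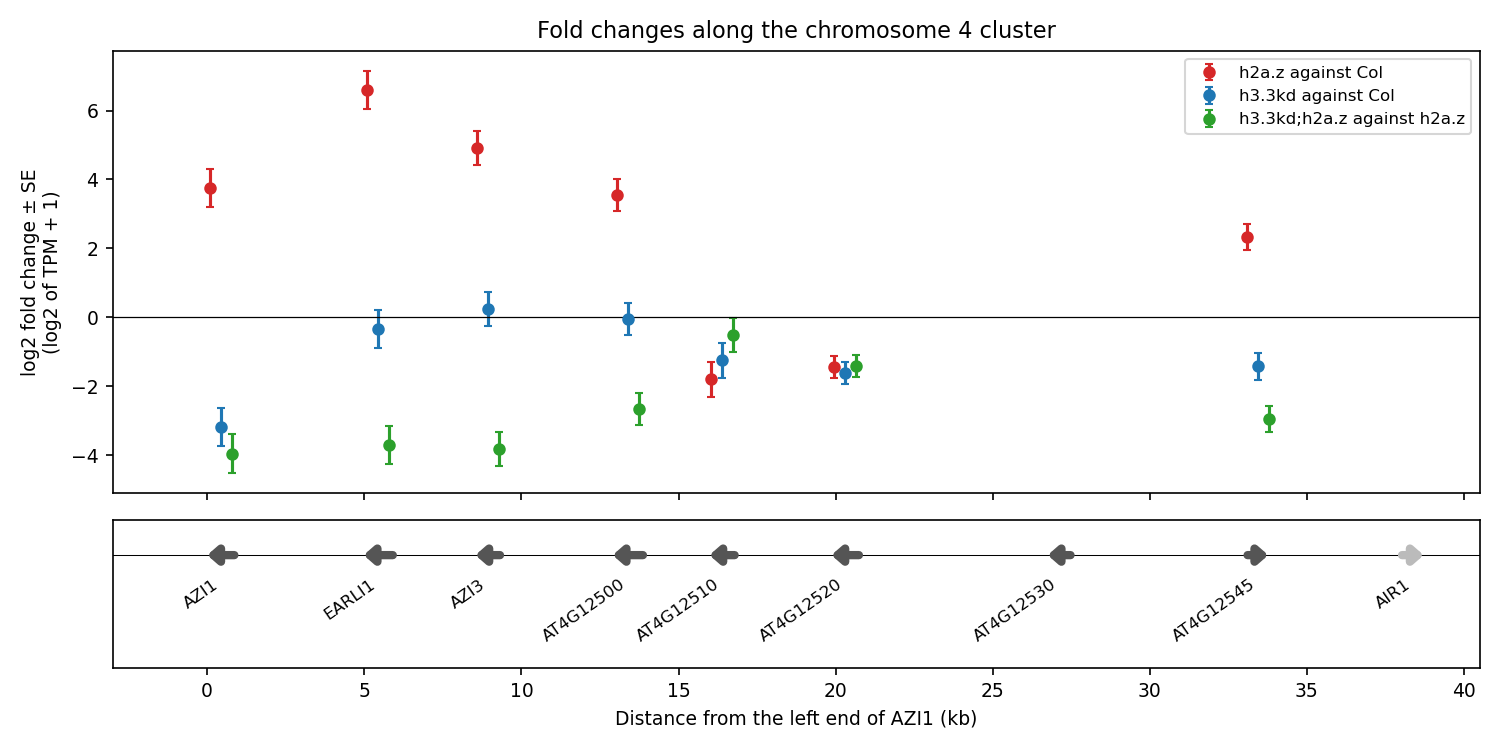
Log2 fold change on log2(TPM + 1), with its standard error, of the 7 tested genes at their place along the cluster (distance from the left end of AZI1, in kb), for h2a.z and h3.3kd against Col and h3.3kd;h2a.z against h2a.z. Arrows show the annotated genes and their strand, pale for AIR1. AT4G12510 and AT4G12520 lie below 0 in h2a.z against Col, between genes that lie above it.

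The combined line was compared with each other genotype in 1 limma model of all 12 libraries, with Benjamini-Hochberg adjustment over 19937 genes. These comparisons share their Col, h2a.z and h3.3kd libraries with those that chose the cluster. The Col and h2a.z values of EARLI1 and the Col and h3.3kd values of AZI1 chose the list, and AZI3 and AT4G12500 passed the filter through h2a.z, so those genes are given without a test against those genotypes. Against h2a.z, the combined line held less AZI1, AT4G12520 and AT4G12545; 19.3% of all genes were called lower. AZI1 fell by 3.95 ± 0.56 (SE) on the log2 scale (adjusted p = 0.00016). AT4G12545 fell by 2.96 ± 0.38 (adjusted p = 7.1e-05) and AT4G12520 fell by 1.43 ± 0.32 (0.0047). AT4G12510 differed by -0.52 ± 0.50 and did not pass (adjusted p = 0.5). The difference, as a description, was -3.72 ± 0.55 for EARLI1, -3.83 ± 0.49 for AZI3 and -2.67 ± 0.47 for AT4G12500, beside a median of -0.15 over all genes. For AZI1, AT4G12520 and AT4G12545 every combined library lay below every h2a.z library, as for 36.6% of all genes. The summed level of 19 root markers was lower as well, at 188 to 203 TPM against 380 to 421, and its part was not tested.

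One library of the combined line, h3.3kd;h2a.z 3, held more AZI1, EARLI1, AZI3 and AT4G12500 than the other 2, with a sum over those 4 genes of 83.9 TPM against 13.6 and 10.98. AT4G12520 (5.39 TPM against 3.19 and 2.06) and AT4G12510 (2.49 against 1.66 and 2.24) were also highest in it, while AT4G12545, at 3.58 TPM, lay between 3.14 and 4.19. Without that library AZI1 differed from h2a.z by -4.85 on the log2 scale (adjusted p = 2.9e-06). The untested differences of EARLI1, AZI3 and AT4G12500 were then -4.52, -4.50 and -3.45.

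Against Col, the combined line held less AT4G12510 and AT4G12520, where 12.6% of all genes were called lower and 6.17% higher. AT4G12520 fell by 2.86 ± 0.32 (SE, log2; adjusted p = 3.5e-05) and AT4G12510 fell by 2.32 ± 0.50 (0.005). Of 18 tested root markers 10 were also lower and none higher here, and their part was not tested. The difference of EARLI1, as a description, was 2.88 ± 0.55, and 2.08 without h3.3kd;h2a.z 3. That of AZI1 was -0.21 ± 0.56, and its combined libraries lay on both sides of the Col range. Leaving out 1 library turned the sign of AZI1: it was 0.04 without Col 2, and with combined library 1 or 2 left out it was 0.38 or 0.09. With combined library 3 left out it was -1.099. AZI3 (1.08, adjusted p = 0.15), AT4G12500 (0.88, 0.21) and AT4G12545 (-0.62, 0.29) did not pass. AZI3 passed without h3.3kd;h2a.z 2 (1.63, adjusted p = 0.036), and AT4G12545 without Col 1 (-1.11, 0.036).

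Against h3.3kd, the combined line held more EARLI1, by 3.21 ± 0.55 (SE, log2; adjusted p = 0.0037), where 2.43% of all genes were called higher. The difference of AZI1, as a description, was 2.98 ± 0.56. AZI1 was at 3.24 to 31.9 TPM in the combined line and at most 0.590 TPM in h3.3kd, with no overlap. Without h3.3kd 2 the difference of EARLI1 was 2.89 (adjusted p = 0.014) and that of AZI1 2.84. Without h3.3kd;h2a.z 3 they were 2.41 (adjusted p = 0.0068) and 2.09. EARLI1 did not pass in a model of these 2 genotypes alone (adjusted p = 0.071). AT4G12520 was lower by test, the 1 such gene, with a change of -1.24 ± 0.32 (adjusted p = 0.042; 1.83% of all genes were called lower), and lost the call in 9 of 22 alternatives, up to an adjusted p of 0.21. AZI3 (0.83, adjusted p = 0.45), AT4G12500 (0.94, 0.35), AT4G12510 (-1.07, 0.31) and AT4G12545 (0.81, 0.31) did not pass.

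**Figure D3:**
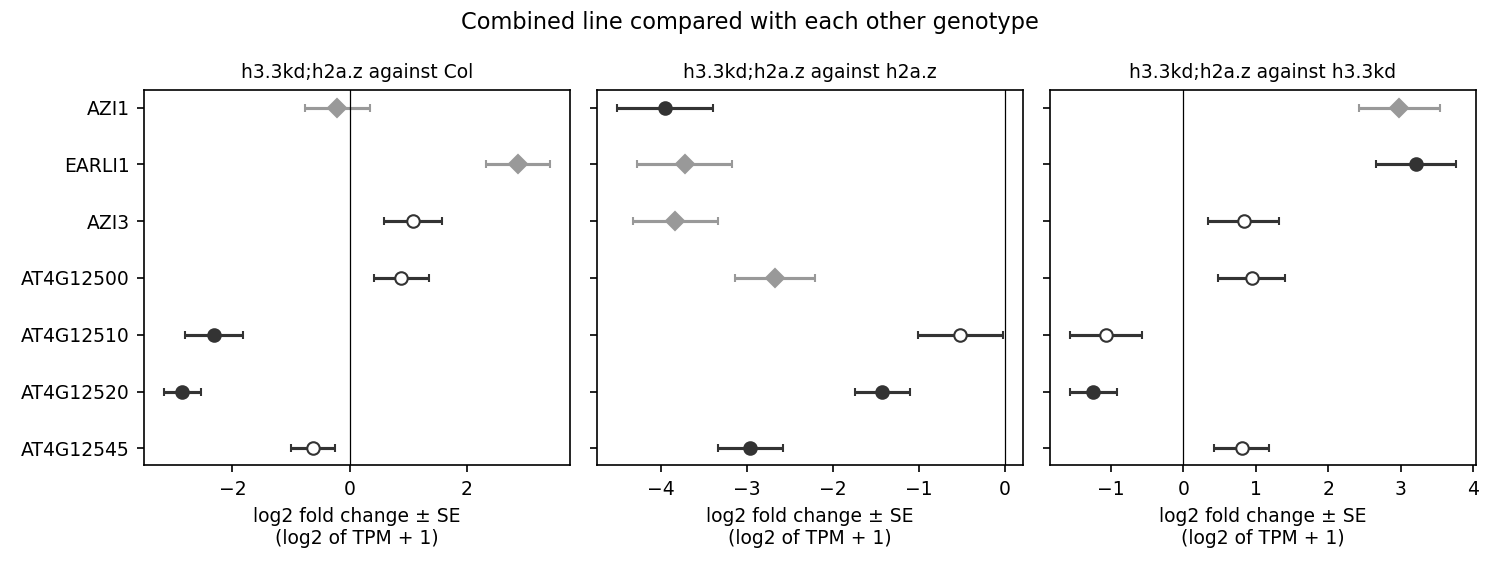
Log2 fold change on log2(TPM + 1), with its standard error, of the 7 tested genes in h3.3kd;h2a.z against Col, h2a.z and h3.3kd. Filled circles passed an adjusted p of 0.05, open circles did not, and grey diamonds are values given without a test. Filled circles number 3 against h2a.z and 2 against Col, all below 0, and 2 against h3.3kd.

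Of the nearest 3 genes on each side of the cluster and 1 in between, 5 were tested, and UPL5 alone was called in any comparison. AT4G12540, between AT4G12530 and AT4G12545, had mean levels of 2.22, 1.95, 2.41 and 1.69 TPM in Col, the knockdown, h2a.z and the combined line, with no call. ORP2B, an oxysterol-binding protein gene on the AZI1 side, had means of 7.79 to 10.1 TPM, and CPR1, an F-box gene that limits immune receptor levels, had means of 63.0 to 71.9 TPM; neither was called. UPL5, a ubiquitin ligase gene, was higher in h3.3kd;h2a.z than in h2a.z (0.69 ± 0.19, SE; adjusted p = 0.017), a call that ended without h2a.z 3 (0.07) or without h3.3kd;h2a.z 2 (0.068). Against Col it was higher in h3.3kd, by 0.66 ± 0.19 (adjusted p = 0.031), a call lost in 6 of 22 alternatives, among them the fit without h3.3kd 2 (0.079).

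Over the 12 libraries, the genes whose centred log2(TPM + 1) differed least from that of AZI1 were AT2G41480, a peroxidase gene, AT5G47600, which encodes an HSP20-like chaperone, the glutathione transferase gene GSTF14, IMS2 and AT2G25510, with root mean square differences of 1.098 to 1.18 against AZI1's own range of 7.48. AT2G41480 averaged 4.099 TPM in Col, 0.731 in h3.3kd, 43.8 in h2a.z and 6.55 in h3.3kd;h2a.z. For EARLI1, with a range of 8.24, they were AT5G42530, the chitinase family gene AT2G43620, AZI3, DIN11 and AT3G21080, at 1.02 to 1.17. AZI3 was thus the third nearest of all tested genes to EARLI1 and the only cluster gene on either list. That rank is a description only. AZI3 passed the filter through its h2a.z libraries, and the ranking uses the Col and h2a.z values of EARLI1 that chose the cluster. AT2G43620 averaged 2.60 TPM in Col, 5.14 in h3.3kd, 146 in h2a.z and 52.5 in h3.3kd;h2a.z.

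Other genes of systemic acquired resistance were followed by a list, of which 23 of 25 genes were tested. In h2a.z against Col 10 of them rose and 2 fell, where 10.5% and 4.56% of all genes did, with a median log2 change of 0.65 beside 0.05 over all genes. RBOHD, the NADPH oxidase of the immune oxidative burst, rose from 13.5 ± 1.35 (SD, n = 3) to 39.4 ± 3.99 TPM, a log2 change of 1.47. LLP1, a legume lectin-like protein that acts in systemic signalling, rose from 3.33 ± 0.435 to 20.6 ± 10.8 TPM, a change of 2.22. Their adjusted p were 0.00012 and 0.00022. FMO1, SARD1 and PDLP1 passed the filter only with their h2a.z libraries; 2 of them are among the 10, and 1 is among the 9 that follow. In the combined line against h2a.z 9 of the 23 fell and none rose (19.3% and 5.34% of all genes), among them UGT76B1, a glucosyltransferase acting on salicylic and N-hydroxypipecolic acid, at -1.65 (adjusted p = 8.9e-05), and LLP1 at -1.92 (0.00051).

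The relative of DIR1 next to it in locus number, DIR1-like (AT5G48490), did not follow AZI1 in h2a.z. It stood at 38.4, 21.3 and 15.2 TPM in Col, 4.41, 0 and 0.557 TPM in h3.3kd, 20.4, 26.1 and 13.8 TPM in h2a.z and 0, 2.08 and 4.09 TPM in h3.3kd;h2a.z. Both lines with the H3.3 knockdown lay below both lines without it, with log2 changes of -3.57 ± 0.60 in h3.3kd against Col (adjusted p = 0.0014) and -3.03 in h3.3kd;h2a.z against h2a.z (0.0022). The former was -3.06 without h3.3kd 2 (adjusted p = 0.0057). In h3.3kd against Col 4 of the 23 genes fell and none rose (11.9% and 5.41% of all genes). Without h3.3kd 2 the number that fell was 7, while the share of all genes called in either direction went from 17.3% to 22.2%. Against Col the combined line had 4 higher and 4 lower (6.17% and 12.6% of all genes), and 1 higher and 3 lower without h3.3kd;h2a.z 3. Against h3.3kd it had 3 higher and none lower (2.43% and 1.83% of all genes), and 1 higher without h3.3kd;h2a.z 3. The 3 were RBOHD, LLP1 and FMO1, and FMO1 passed the filter only with its h2a.z libraries. Their calls were lost in 3 of 22, 9 of 22 and 17 of 21 alternatives. In a model of these 2 genotypes alone none of them passed (adjusted p = 0.11, 0.089 and 0.17).

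Of 19 further genes for proline-rich 8-cysteine proteins of the AZI1 type, 11 were tested, and most were lower in both comparisons that add the H3.3 knockdown. In h3.3kd against Col 9 fell and none rose (11.9% and 5.41% of all genes), with a median log2 change of -1.20 beside -0.12 over all genes. Against h2a.z the combined line had 7 lower and none higher (19.3% and 5.34% of all genes), with a median of -0.77 beside -0.15. The root markers described last were lower in both comparisons too, and their part was not tested. AT4G22490 averaged 254 ± 75.1 TPM (SD, n = 3) in Col, 8.62 ± 7.38 in h3.3kd, 156 ± 49.9 in h2a.z and 18.9 ± 2.77 in h3.3kd;h2a.z. Its log2 change in h3.3kd against Col was -5.04 (adjusted p = 1.1e-05), and -5.64 without h3.3kd 2. AT1G62510 fell by 3.89 in h3.3kd;h2a.z against h2a.z (adjusted p = 1.7e-06). In h2a.z against Col 3 fell and 1 rose (4.56% and 10.5% of all genes). AT5G46890 and AT5G46900, neighbouring relatives whose counts may share reads, were among those that fell, with log2 changes of -2.91 and -3.91 (adjusted p = 0.00015 and 0.00062), and so had the direction of AT4G12510 and AT4G12520 there.

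The other lipid transfer proteins, 8 of 9 tested, had mixed directions. LTP2, an abundant epidermal protein, averaged 235 ± 18.2 TPM (SD, n = 3) in Col, 725 ± 284 in h3.3kd, 96.7 ± 11.1 in h2a.z and 444 ± 34.7 in h3.3kd;h2a.z. It rose by 1.53 in h3.3kd against Col (adjusted p = 0.00073; 1.92 without h3.3kd 2), fell by 1.27 in h2a.z against Col (0.0018) and rose by 2.19 in h3.3kd;h2a.z against h2a.z (1.5e-05), each opposite in sign to the value of AZI1. In h3.3kd;h2a.z against h2a.z 5 of the 8 rose and 1 fell (5.34% and 19.3% of all genes), with 3 rising without h3.3kd;h2a.z 3. In h3.3kd against Col 4 rose and 3 fell, where 5.41% and 11.9% of all genes did (1 fell without h3.3kd 2). In h2a.z against Col none rose and 3 fell, where 10.5% and 4.56% did.

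**Figure D4:**
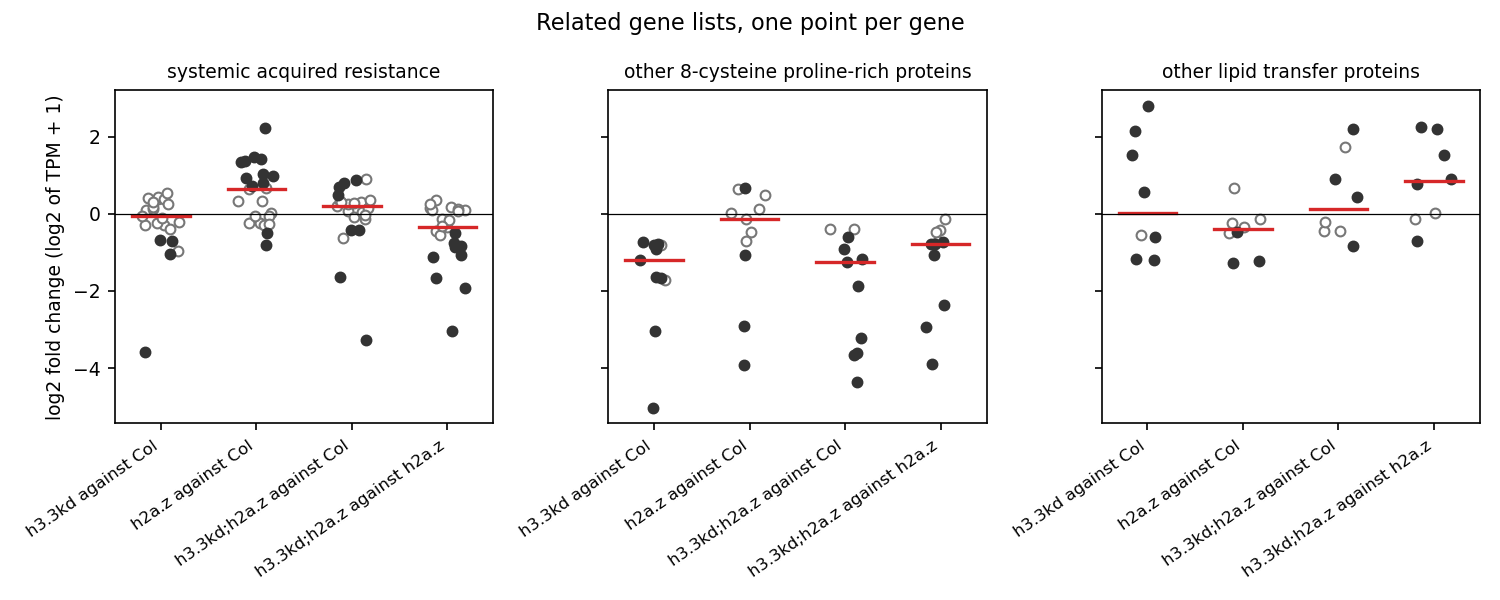
Log2 fold change on log2(TPM + 1) of each tested gene of 3 related lists in 4 comparisons; filled points passed an adjusted p of 0.05, and red bars are list medians. Systemic acquired resistance genes have a median of 0.65 in h2a.z against Col, and proline-rich 8-cysteine genes one of -1.20 in h3.3kd against Col. Horizontal positions within a column carry no meaning.

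The summed level of the root markers was lower in h3.3kd and h3.3kd;h2a.z than in Col and h2a.z. The summed TPM of the 19 root genes was 297 to 380 in Col, 131 to 268 in h3.3kd, 380 to 421 in h2a.z and 188 to 203 in h3.3kd;h2a.z. NRT2.1, a nitrate transporter of roots, was at 0 in every h3.3kd;h2a.z library. It reached at most 0.405 TPM in any other library, so it was near the floor in every genotype. In h3.3kd;h2a.z against h2a.z 10 of 18 tested root genes fell and none rose (19.3% and 5.34% of all genes); 2 of the 10, PLT1 and PLT2, passed the filter only with their h2a.z libraries. In h3.3kd against Col 6 fell (11.9% of all genes), and 2 after quantile normalization. In h2a.z against Col 2 of the 18 rose and none fell (10.5% and 4.56% of all genes), with a median log2 change of 0.02 beside 0.05 over all genes. The 8 green leaf genes summed to 33878 to 40712 TPM in Col, 31218 to 38962 in h3.3kd, 28336 to 33262 in h2a.z and 39356 to 40652 in h3.3kd;h2a.z. The 6 shoot epidermis genes summed to 1197 to 1721, 996 to 1303, 1472 to 1760 and 1413 to 1512 TPM in the same order. Their part in the levels of the cluster was not tested.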

How the data were processed

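Total RNA of 12 seedling libraries was sequenced. The authors deposited 1 table of TPM for 23387 genes. Per the submitters' processing notes, fastp 0.20.1, HISAT2, HTSeq 0.11.2 and DESeq2 1.26.0 were used with build TAIR10; the sources used here do not give the gene lengths behind TPM, the counting mode or strand. Columns were matched to samples by title. A gene was tested if it reached 1 TPM in at least 3 libraries (19937 genes), with limma 3.58.1 in R 4.3.3 on log2(TPM + 1), the 4 genotype means in 1 model, eBayes with trend, and Benjamini-Hochberg adjustment over all tested genes; calls are at an adjusted p under 0.05. Count tests were not run. A permutation test of 3 against 3 libraries cannot go below p = 0.1. TPM times transcript length of single-exon genes gave whole multiples of a step (98.0% to 100% of low values within 0.1 of a whole read), from which reads were estimated; 3 reads is the floor used.

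The cluster's genes and the lists were chosen with earlier results of these data known. Named genes are all listed loci, the 6 targeted histone genes, up to 3 called genes per list and comparison with the smallest adjusted p, of which the text gives some, the 5 genes nearest in pattern to AZI1 and to EARLI1, and the nearest 3 neighbours on each side and any between. Same-numbered Col and h3.3kd libraries deviated together over all genes (r = 0.314, 0.221 and 0.115), which meets the mark for pairing. For Col 3 a differently numbered h3.3kd library reached r = 0.116, so the match is not distinct there. The other genotype pairs did not meet the mark. The values printed come from the model without the block, and blocked fits are alternatives. Gene models and sequences are from RefSeq TAIR10.1, which carries the chromosome lengths of TAIR10; it gave the neighbours' names. The model was tested on simulated data. The upstream windows of AZI3 and AT4G12500 are not reported here.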

Additional observations from a re-analysis of the deposited data

How the results depend on the processing

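Fold changes and calls of single genes and counts over the cluster were recomputed under up to 22 alternatives, and list counts under 6 of them; sums, ratios and likeness ranks were not. The alternatives were other pseudocounts, filters and scalings, robust eBayes, a replicate block, a model of the compared genotypes only, a block within such a model (added after seeing the data), and each library left out. With the replicate block in the model of 4 genotypes, the counts of cluster genes past the threshold stayed at 6 lower against h2a.z, at 1 higher and 2 lower against Col and at 2 higher and 1 lower against h3.3kd. These counts describe the settings only, since they include EARLI1, AZI3 and AT4G12500 against h2a.z, AZI1 against h3.3kd and both AZI1 and EARLI1 against Col, which the report gives without a test. Of all genes, without the block, 19.3% were lower against h2a.z and 6.17% higher and 12.6% lower against Col. Against h3.3kd 2.43% were higher and 1.83% lower.

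Against Col, the number called higher in h3.3kd;h2a.z was 1 to 2 with 1 library left out (2 without h3.3kd;h2a.z 2), and the number called lower 2 to 3. Against h2a.z, 6 to 7 were lower and 0 higher. In these fits 11.9% to 25.2% of all genes were called against Col and 17.4% to 31.5% against h2a.z, in either direction. Against h3.3kd, 2 were higher and 0 to 1 lower with 1 library left out, where 2.11% to 7.75% of all genes were called. None was lower with no filter, in the model of the compared genotypes (0 higher, 0 lower) or with the block added to it (1 higher, 0 lower). In the latter 2 models 1.91% and 1.55% of all genes were called. The cluster counts again include genes given without a test. The sign of AZI1 in h3.3kd;h2a.z against Col turned: 0.04 without Col 2, and 0.38 or 0.09 with combined library 1 or 2 left out (its range over left-out libraries was -1.099 to 0.38). AT4G12510 passed against h2a.z without h2a.z 3 (-1.23, adjusted p = 0.037). A pseudocount of 0.1 moved the h2a.z against Col values to 7.50 for EARLI1, 8.19 for AZI3 and 6.43 for AT4G12500, and the h3.3kd against Col value of EARLI1 to -1.27. The cause was not tested.

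In h3.3kd against Col the replicate block alone left 4 systemic acquired resistance, 9 proline-rich 8-cysteine and 6 root genes lower. With the block in a model of those 2 genotypes alone, where 8.67% of all genes were called, the counts were 2, 10 and 3, and 1 other lipid transfer gene was lower. Quantile normalization left 1 systemic acquired resistance gene higher in h3.3kd;h2a.z against h3.3kd.

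Over all genes, called shares moved over 1.5 times in some settings, to 5.37% in h3.3kd against Col and to 39.5% in h3.3kd;h2a.z against h2a.z in models of the compared genotypes only. Median ratio rescaling moved the higher share of h3.3kd;h2a.z against h2a.z calls to 37.9%, and quantile normalization to 50.4%. Depth limits AT4G12530 and the h3.3kd level of AZI1, which rest on few reads.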
